A study of Mus musculus with 10 samples.

Results

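Cebpb and Cebpd, which encode the transcription factors C/EBPβ and C/EBPδ, were examined for N6-methyladenosine (m6A) peaks in differentiating 3T3-L1 cells. A peak was counted for a gene when both of its ends lay in exons of that gene on the gene's own strand. By this rule 29 of the 17036 peaks in 5 peak lists belonged to these 2 genes. The 3T3-L1 line is a mouse fibroblast line that turns into fat cells after induction with MDI, a cocktail of a phosphodiesterase inhibitor, dexamethasone and insulin. Cells received DMSO, the solvent, or 20 µM rhein, an anthraquinone known to inhibit FTO, an enzyme that removes m6A, on days 0 to 3 of induction. The conditions were DMSO Pre, labelled as preadipocytes, DMSO MCE and rhein MCE, labelled as preadipocytes at the stage of mitotic clonal expansion, and DMSO Diff and rhein Diff, labelled as mature adipocytes. Per the study's methods, preadipocytes were collected at day 0, clonal expansion cells at day 3 and differentiated cells later. The treatment window therefore cannot have run in full in DMSO Pre, and it had ended before Diff cells were collected. RNA fragments were pulled down with an anti-m6A antibody, and each of the 5 conditions had 1 immunoprecipitated and 1 input library. The study's methods give 3T3-L1 as the line of all groups, although the source names in the labels end in a different number for each library. DMSO Pre had no rhein counterpart.

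There was 1 list per condition and no replicate, so no difference between conditions was tested against a spread. Under DMSO the lists held 2824 peaks at Pre, 5128 at MCE and 2944 at Diff, and under rhein 3069 at MCE and 3071 at Diff. The rhein lists shared 3067 spans with the same start and end, so they were counted as 1 result and rhein MCE stands for both, which leaves 4 distinct lists and 21 member peaks. No comparison between rhein at MCE and rhein at Diff can therefore be drawn for Cebpb or Cebpd, and which stage the rhein result belongs to cannot be told from the lists. The lists gave no read numbers and no RNA levels. The depth is thus unknown, the labelled cell types were not checked against marker levels, and more RNA of a gene cannot be told apart from more methylation where a peak is present in 1 list only. Each peak came with 1 value under the heading log2 fold change, which ran from 4.186 to 735.3 in DMSO Pre. It is called the score here and was read as a negative log2 adjusted p-value, a reading that was not tested. On this reading a higher score means a stronger call, not a larger share of methylated molecules. A rank of 1 is the highest score of a list.

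C/EBPβ and C/EBPδ are basic leucine zipper proteins, and both are among the first transcription factors induced when preadipocytes receive the hormone cocktail. They act during mitotic clonal expansion and help to switch on Cebpa and Pparg, which drive the fat cell programme. The Cebpb mRNA is read from alternative in-frame start codons into the long activating forms LAP* and LAP and the short form LIP, which lacks the activation domain. The m6A mark is placed on mRNA by the METTL3-METTL14 methyltransferase, mostly at an adenosine inside the consensus named DRACH, of which GGAC is the commonest core. Peaks of m6A gather near stop codons and in 3′ UTRs of many mRNAs, and reader proteins bound to the mark can alter the stability or translation of the mRNA.

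Both genes are intronless. Cebpb (ENSMUSG00000056501.3) is a single exon on the plus strand of mouse chromosome 2, chr2:167688915-167690418 in mm10 (GRCm38). Its transcript of 1504 bases holds a 5′ UTR of 107 bases, a coding sequence of 891 bases for 296 residues, and a 3′ UTR of 506 bases. Cebpd (ENSMUSG00000071637.5) lies on the plus strand of chromosome 16, chr16:15887286-15891031, with a transcript of 3746 bases split into 39, 807 and 2900 bases, and encodes 268 residues. The Cebpb transcript had a GC content of 67.2%, above 99.7% of 21866 protein-coding genes, while the 51.6% of Cebpd was above 62.2% of them. GGAC occurred 12 times in Cebpb and 24 times in Cebpd, which is 7.98 and 6.41 per kb against a median of 3.94 per kb over protein-coding genes. DRACH was rare in Cebpb, at 17 sites or 11.3 per kb, which was above only 1.64% of genes, and it occurred 79 times or 21.1 per kb in Cebpd.

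The following stretches of 30 bases show candidate sites chosen for the lists in which they lay under a peak. Their coverage, given after them, is thus a description, and whether any peak depends on them was not tested. They were read from the RefSeq copy of GRCm38 on the plus strand, 5′ to 3′, with the GGAC sites and their following base, or the DRACH site where no GGAC was present, in capitals. Where GGAC sites stand close together the capitals run through both. In the Cebpb 5′ UTR stretch the more 3′ GGAC is followed by G and is not a DRACH site.
Cebpb 5′ UTR, chr2:167688976-167689005: ccgcgcacgGGACCGGGACGcagcggagcc
Cebpb coding sequence, chr2:167689432-167689461: cttcgaacccgcGGACTgcaagcgcgcgga
Cebpb coding sequence near the stop codon, chr2:167689846-167689875: cagcaccctgcgGAACTtgttcaagcagct
Cebpb 3′ UTR, chr2:167690092-167690121: caccgggtttcgGGACTtgatgcaatccgg
Cebpb 3′ UTR, chr2:167690136-167690165: agcgcgtgtGGACACGGGACTgacgcaaca
Cebpd coding sequence, chr16:15887402-15887431: gccaggcagggtGGACAagcccggccgagg
Cebpd coding sequence, chr16:15887873-15887902: caagaggggtccGGACCgcggcagcccgga
Cebpd 3′ UTR, chr16:15888248-15888277: agcttgggcactGGACTgcgagagaagcta
The 5′ UTR pair of Cebpb lay under a peak in rhein and in no DMSO list, and the first coding site only in DMSO MCE. The site near the stop codon was under a peak in DMSO Pre, DMSO Diff and rhein, and both 3′ UTR stretches of Cebpb were under a peak in all 4 distinct lists. Of the Cebpd sites, the first was covered in DMSO Diff and rhein, the second in every list but DMSO Pre, and the third in every list but DMSO Diff.

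Both genes carried peaks in all 4 distinct lists. Of the 21866 protein-coding genes, 2.63% did so, and of the 3691 genes with a peak in at least 1 of these lists, 15.6% did so. Because Cebpb and Cebpd were chosen with earlier results of these data known, such shares and ranks beside them are a description and not a test. At least 1 peak was found in 6.99% of protein-coding genes at Pre, 12.7% at MCE and 6.86% at Diff under DMSO, and in 7.6% under rhein (7.61% in rhein Diff). These shares count genes that the cells may not express, and the corresponding shares of the 1362 intronless genes were lower, at 2.79%, 6.17%, 3.3% and 4.11%, with 2.06% carrying a peak in all 4 distinct lists. Cebpb had 2 peaks at Pre, 4 at MCE and 2 at Diff under DMSO, and 5 under rhein. At least as many peaks were found in 2.41%, 1.07%, 2.52% and 0.316% of protein-coding genes. Cebpd had 1, 3 and 1 peaks under DMSO and 3 under rhein, and the matching shares of genes were 6.99%, 2.23%, 6.86% and 1.16%. Both genes thus had more separate peaks in DMSO MCE and in rhein than in DMSO Pre and DMSO Diff. The list of DMSO MCE was the longest. Reducing every list to its 2824 highest scores removed no member peak, because none ranked lower than 2296, or than 1807 in DMSO MCE. Such a cut does not equalise depth, and the part of list length in these counts was not tested.

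Under DMSO, Cebpb had a peak at each stage that ran from the coding sequence across the stop codon and another in the 3′ UTR, and DMSO MCE and rhein added peaks further 5′. In DMSO Pre the first block was a peak of 150 bases, chr2:167689790-167689939, with a score of 32.9 and rank 71 of 2824. It covered codons 257 to 296 and the first 27 bases of the 3′ UTR. The second peak of DMSO Pre, chr2:167690015-167690339, spanned 325 bases of 3′ UTR and was near the bottom of the list, with a score of 5.38 and rank 2296. The preadipocyte list therefore placed the strong call of Cebpb at the end of the coding sequence and a weak one downstream of it.

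**Figure D1:**
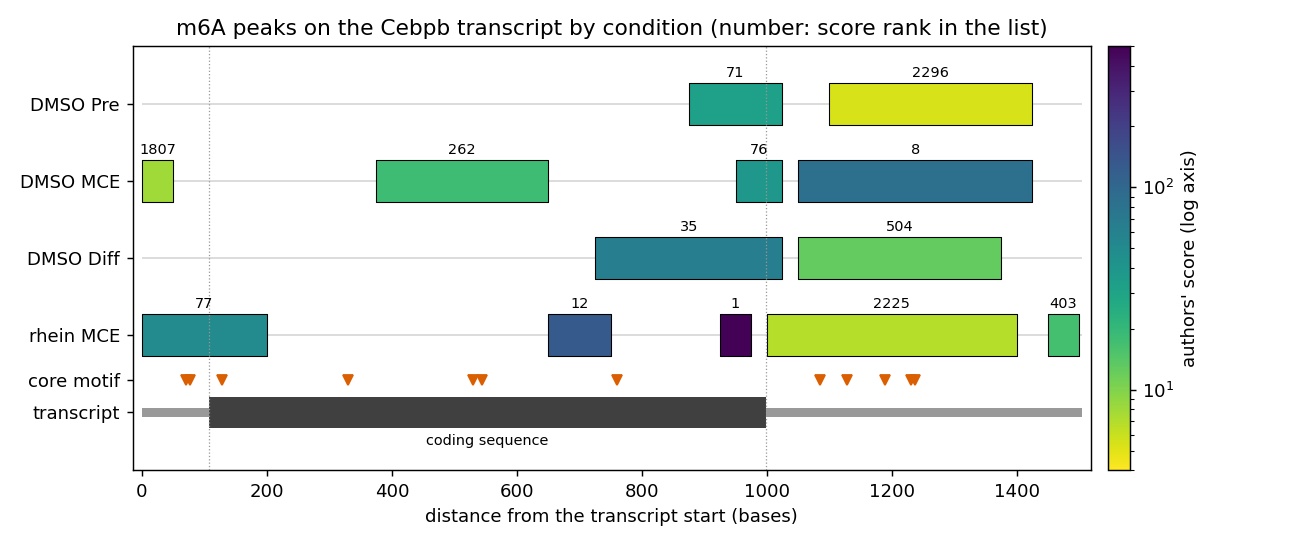
Peaks on the Cebpb transcript in the 4 distinct lists, drawn along the distance from the transcript start in bases. Each box is a peak, its colour gives the authors' score on a log scale and the number above it the score rank within the list. Triangles mark the 12 core motif sites, dotted lines the ends of the coding sequence, and rhein MCE stands for both rhein lists. All 4 lists have boxes at the stop codon or just beyond it and in the 3′ UTR, and rhein alone covers the whole 5′ UTR.

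In DMSO MCE the order was turned round. The 3′ UTR peak, chr2:167689965-167690339, was 375 bases long and reached a score of 85.7, which was rank 8 of 5128 peaks. The peak over the stop codon, chr2:167689865-167689939, was 75 bases long and came at rank 76 with a score of 38.8. A peak of 275 bases inside the coding sequence, chr2:167689290-167689564, covered codons 90 to 181 at rank 262 with a score of 18.1. It contained the start codon of LIP at codon 152, and no other list had a peak there. The last peak of DMSO MCE lay on the first 50 bases of the 5′ UTR, chr2:167688915-167688964, at rank 1807 with a score of 7.95.

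In DMSO Diff the 5′ peaks were not listed and the strong call was again at the end of the coding sequence. That peak, chr2:167689640-167689939, was 300 bases long, covered codons 207 to 296, and had a score of 65.0 at rank 35 of 2944. The 3′ UTR peak, chr2:167689965-167690289, was 325 bases long with a score of 12.8 at rank 504. Only 25 bases separated these peaks. The downstream end of the stop codon peak was the same base in DMSO Pre, DMSO MCE and DMSO Diff, while its upstream end differed among them.

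Rhein had the most divided pattern. Its highest score, 487.5, belonged to a Cebpb peak of 50 bases, chr2:167689840-167689889, over codons 273 to 290, and this was rank 1 of all 3069 peaks. A further coding peak of 100 bases, chr2:167689565-167689664, over codons 182 to 215, reached a score of 129.4 at rank 12. The 5′ peak, chr2:167688915-167689114, was 200 bases long and covered the whole 5′ UTR and the first 31 codons, with a score of 50.8 at rank 77. The start codons of LAP* at codon 1 and LAP at codon 22 were under this peak and under no peak of a DMSO list. The 3′ UTR peak, chr2:167689915-167690314, was the longest at 400 bases and ranked low, at 2225 with a score of 6.80. A peak of 50 bases near the end of the transcript, chr2:167690365-167690414, had a score of 17.0 at rank 403 and no counterpart in the DMSO lists. The highest Cebpb score thus lay in the 3′ UTR in DMSO MCE and in the last part of the coding sequence in the other 3 lists.

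The rhein lists gave these 5 peaks the same spans. Scores differed by less than 0.02 for 4 of them, but the 5′ peak scored 50.8 in rhein MCE and 70.1 in rhein Diff, a difference of 19.3 that only 11 of the 3067 common spans exceeded. Its rank was 77 and 37. The reason for this difference was not tested.

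The bases that all 4 lists had in common were few and lay toward the 3′ end. Of the Cebpb transcript, 325 bases or 21.6% were under a peak in every distinct list. The main stretch, chr2:167690015-167690289, was 275 bases of 3′ UTR and contained 4 GGAC and 5 DRACH sites. The others were 25 bases at chr2:167689865-167689889 and 25 bases at chr2:167689915-167689939, on either side of the stop codon, with no GGAC and no DRACH site. A further 700 bases, or 46.5% of the transcript, were under a peak in 1 list only, and 204 bases were under none. DMSO Pre shared 89.5% of its covered bases with DMSO Diff, 84.2% with DMSO MCE and 78.9% with rhein. Rhein shared 46.9% of its 800 covered bases with DMSO Pre, 56.2% with DMSO MCE and 53.1% with DMSO Diff. No pair of distinct lists had a Cebpb or Cebpd peak with the same start and end.

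All starts and ends of the 21 member peaks fell on a grid of 25 bases counted from the transcript start, the step of the peak caller. Of the 13 gaps between neighbouring peaks of one list, 5 were 25 bases wide. Some of the peak counts thus turn on a single step of the caller. With peaks joined across gaps of 25 bases, Cebpb had 2, 3 and 1 peaks at Pre, MCE and Diff under DMSO and 4 under rhein, and Cebpd had 1, 2, 1 and 2. The order of the lists was kept for Cebpd, and for Cebpb DMSO MCE and rhein still had more peaks than the others.

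Cebpd differed from Cebpb in where its peaks lay. In DMSO Pre its only peak was in the 3′ UTR just past the stop codon, chr16:15888136-15888485, with 350 bases, a score of 6.24 and rank 1987 of 2824. In DMSO Diff its only peak was in the coding sequence, chr16:15887361-15888010, with 650 bases over codons 13 to 229, a score of 43.4 and rank 74 of 2944. The peaks of these lists had 0 bases in common. DMSO Pre and DMSO Diff therefore each listed a Cebpd peak in a part of the mRNA where the other listed none.

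DMSO MCE had peaks in both places. The one across the stop codon, chr16:15888036-15888510, was 475 bases long and the highest of its 3, with a score of 51.1 at rank 44 of 5128. The coding peak, chr16:15887586-15888010, was 425 bases long with a score of 34.4 at rank 91, and it ended on the same base as the DMSO Diff peak. A peak of 75 bases near the start of the coding sequence, chr16:15887336-15887410, had a score of 21.7 at rank 187.

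Rhein also had peaks in both places, with a different order of scores. The coding peak, chr16:15887536-15887935, was 400 bases long over codons 71 to 204 and reached a score of 145.9, rank 6 of 3069. The peak before it, chr16:15887336-15887510, was 175 bases long over codons 4 to 62, with a score of 43.0 at rank 106. The 3′ UTR peak, chr16:15888136-15888510, was 375 bases long with a score of 8.27 at rank 1417, and it began on the same base as the DMSO Pre peak. The 3′ UTR call of Cebpd was thus within the top 1% of the list in DMSO MCE, at 46.2% of the ranks in rhein and at 70.4% in DMSO Pre. In the rhein Diff list the same 3 spans had scores of 42.9, 145.9 and 8.27.

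**Figure D2:**
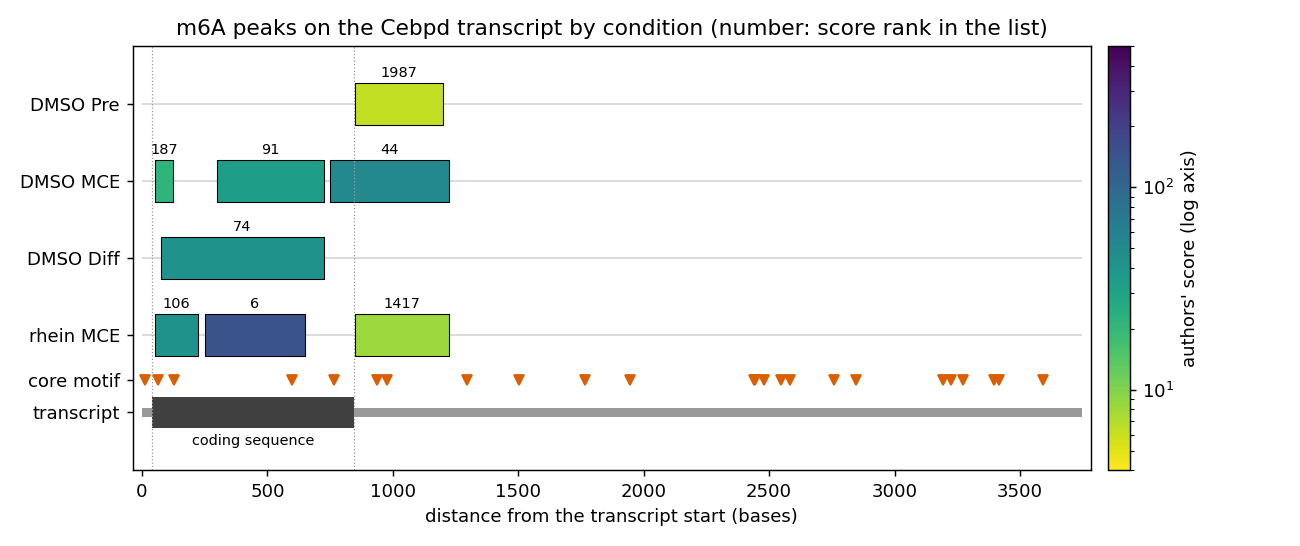
Peaks on the Cebpd transcript in the 4 distinct lists, drawn as for Cebpb, with distance from the transcript start in bases, colour for the authors' score on a log scale and the score rank above each box. DMSO Pre has a box in the 3′ UTR and DMSO Diff one in the coding sequence, and DMSO MCE and rhein have both. The last 2521 bases have no box and hold 17 of the 24 core motif sites. The shorter RefSeq mRNA, of 2260 bases, holds only 11 of the 24, and whether the cells make the longer 3′ UTR is not known.

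No base of Cebpd was under a peak in all 4 distinct lists, while 750 bases, or 20.0% of the transcript, were under a peak in 3 of them. These were mainly a coding stretch of 350 bases, chr16:15887586-15887935, absent from DMSO Pre, and a 3′ UTR stretch of 350 bases, chr16:15888136-15888485, absent from DMSO Diff. Rhein shared 84.2% of its 950 covered bases with DMSO MCE, 57.9% with DMSO Diff and 36.8% with DMSO Pre. The most 3′ covered base lay 379 bases past the coding sequence, so that 2521 bases of the annotated 3′ UTR had no peak in any list. Of these, the part beyond chr16:15889545 is not in the RefSeq mRNA of Cebpd, which ends there, and whether the cells make the longer 3′ UTR cannot be read from the lists. The start codon and the 5′ UTR of Cebpd were under no peak.

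The share of each transcript under peaks was lowest in DMSO Pre for both genes. Cebpb was covered over 31.6% of its length at Pre, 51.5% at MCE and 41.6% at Diff under DMSO, and over 53.2% under rhein. Counting only peaks with an adjusted p-value read as below 0.001, these shares were 9.97%, 48.2%, 41.6% and 26.6%, so that rhein fell below DMSO MCE and DMSO Diff. Ranked by this share among the genes with a peak, Cebpb was 23rd of 1528, 16th of 2775, 30th of 1499 and 4th of 1662. For Cebpd the shares were 9.34%, 26.0%, 17.4% and 25.4%, and its ranks 294, 92, 145 and 82. The stricter threshold gave Cebpd 0% in DMSO Pre and 15.3% in rhein. By part, the coding sequence of Cebpb was covered over 13.8%, 36.3%, 30.6% and 27.3%, and its 3′ UTR over 69.6%, 79.4%, 69.6% and 88.9%. Its 5′ UTR was at 0% in DMSO Pre and DMSO Diff, 46.7% in DMSO MCE and 100% in rhein. For Cebpd the coding sequence was covered over 0%, 73.9%, 80.5% and 71.3%, and the 3′ UTR over 12.1%, 13.1%, 0% and 12.9%. In bases, the 5′ UTR of Cebpb was covered over 107 in rhein, 50 in DMSO MCE and 0 in DMSO Diff. Its coding sequence was covered over 243, 323 and 273 bases, and its 3′ UTR over 450, 402 and 352, of which the rhein value rests mainly on the peak with a score of 6.80. For Cebpd the covered coding bases were 575 in rhein, 596 in DMSO MCE and 650 in DMSO Diff, and those of the 3′ UTR 375, 379 and 0.

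**Figure D3:**
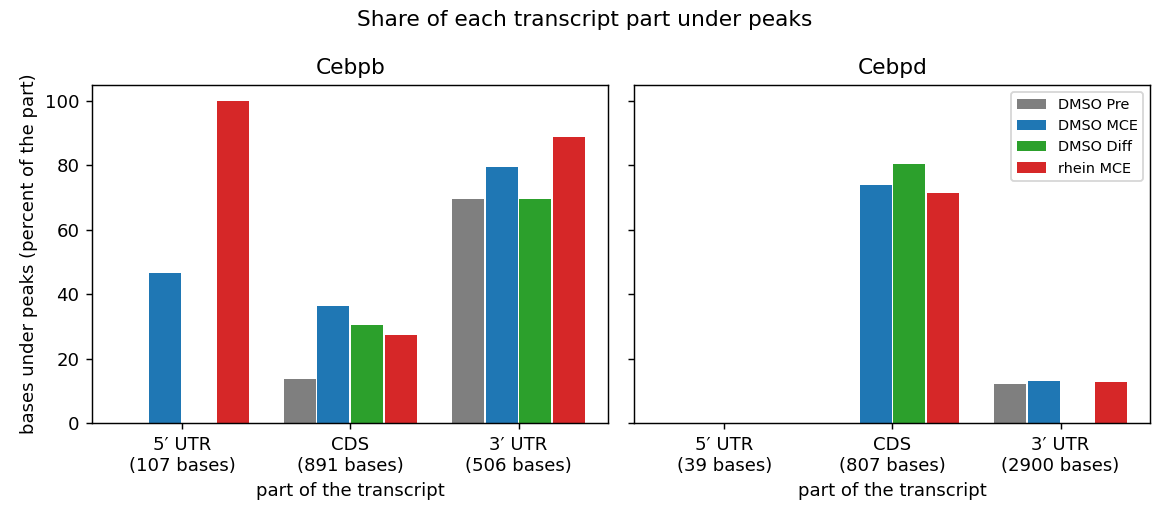
Bases under peaks as a percent of each part of the Cebpb and Cebpd transcripts, with the length of the part in brackets. Bars start at 0 and stand for the 4 distinct lists, without error bars because each condition has 1 list. The Cebpb 5′ UTR reaches 100% in rhein, and the Cebpd coding sequence is at 0% in DMSO Pre only.

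Member peaks were among the stronger calls of their lists. Of the 21, 14 were within the top 10% of scores, 5 within the top 1% and 3 in the lower 50%. Those 3 were the 3′ UTR peaks of both genes in DMSO Pre and that of Cebpb in rhein. Read as an adjusted p-value below 1e-10, the calls of Cebpb numbered 0, 2 and 1 at Pre, MCE and Diff under DMSO and 3 under rhein. Those of Cebpd numbered 0, 2, 1 and 2. The 0 of Cebpb at Pre turned on a small margin, as its highest score there was 32.86 against a threshold of 33.2. Of all peaks, 2.41%, 1.87%, 3.46% and 4.92% passed this threshold. Below 0.001 the peaks of Cebpb numbered 1, 3, 2 and 4 and those of Cebpd 0, 3, 1 and 2, against 32.2%, 18.8%, 31% and 30.7% of all peaks (30.4% in rhein Diff). By its highest peak, Cebpb stood at place 43, 4, 17 and 1 among the protein-coding genes with a peak, and Cebpd at 1164, 22, 42 and 6. For both genes the place in DMSO Pre was the lowest and the place in rhein the highest. Read as adjusted p-values, scores would rise with depth and with RNA level, neither of which the lists give. The part of depth and RNA level in this order was not tested.

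**Figure D4:**
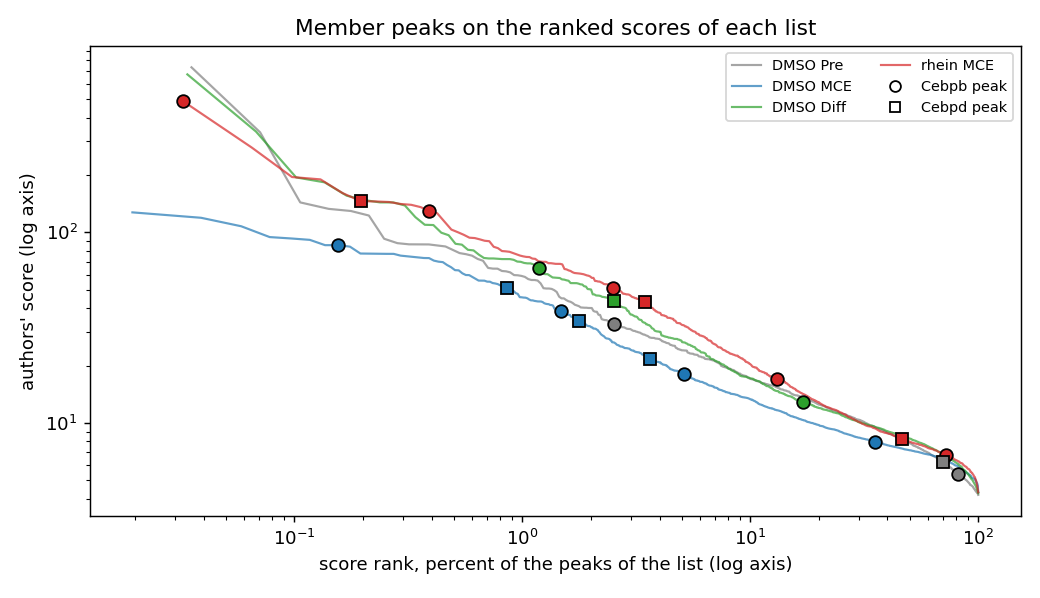
Scores of all peaks of the 4 distinct lists against their rank as a percent of the list, both on log axes, with Cebpb peaks as circles and Cebpd peaks as squares in the colour of the list. The lines show that DMSO MCE has lower scores at most ranks, with a highest score of 127.3. The Cebpb peak of rank 1 in rhein has a score of 487.5.

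Candidate motifs under the peaks were counted on the plus strand, and every GGAC followed by A, C or T is also a DRACH site. GGAC was present in 15 of the 21 member peaks, 7 of 13 in Cebpb and 8 of 8 in Cebpd, and DRACH in 19 of 21. Over all placed peaks of coding transcripts, 52.9% to 56.6% contained GGAC and 86.4% to 88.7% DRACH. A window of 300 bases taken anywhere in coding transcripts contained GGAC in 66.4% of cases and DRACH in 99.4%, so the presence of a motif in a long peak says little. Cebpb peaks with no GGAC were short, from 50 to 150 bases, and 3 of these 6 lay over or beside the stop codon. The rank 1 peak of rhein had no GGAC and 1 DRACH site, the GAACT printed above, and 17.2% of windows of its 50 bases contained GGAC and 62.3% DRACH. The rank 12 peak of rhein and the stop codon peak of DMSO MCE had neither.

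Over the whole Cebpb transcript, 11 of the 12 GGAC sites were under a peak in at least 1 distinct list and 4 in all of them. Sites stood at 8.42 per kb under the peaks of DMSO Pre and 7.77 outside, 9.03 and 6.86 in DMSO MCE, 9.6 and 6.83 in DMSO Diff, and 10 and 5.68 in rhein. In Cebpd 6 of 24 GGAC sites were under a peak in at least 1 list. On the GENCODE transcript its density under peaks was below that outside in every list, at 5.71 and 6.48 per kb in DMSO Pre, 5.13 and 6.86 in DMSO MCE, 3.08 and 7.11 in DMSO Diff and 5.26 and 6.8 in rhein. These densities rest on 2 to 8 sites per list and gene. On the shorter RefSeq mRNA of Cebpd, with 11 GGAC sites, the density outside peaks was 4.71, 4.67, 5.59 and 4.58 per kb, and the direction turned in every list but DMSO Diff. No difference in direction between the genes can thus be read from these values.

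The middle of the Cebpb coding sequence is also transcribed territory on the other strand. A noncoding transcript of Tmem189 has an exon at chr2:167689511-167689822 on the minus strand, over 312 bases of Cebpb. The lists contained minus strand peaks there in DMSO Diff, chr2:167689633-167689822, with a score of 13.2 at rank 468, and in rhein, chr2:167689558-167689657, with a score of 63.2 at rank 49. The former shared 183 bases with the Cebpb peak of 300 bases and the latter 93 bases with the Cebpb peak of rank 12. Of the peaks in places with exons on both strands, 53.8% (95% Wilson interval 43.7 to 63.5, counting error only, n = 93) in DMSO Pre, 79.1% (72.5 to 84.4, n = 177) in DMSO MCE, 71.6% (61.8 to 79.7, n = 95) in DMSO Diff and 81.2% (73.7 to 86.9, n = 133) in rhein overlapped a peak of the other strand. Overlap is mutual, so paired peaks are not independent counts and these intervals may be too narrow. The strand setting of the counting is not given in the sources used here, so reads of Cebpb and of this exon cannot be told apart. The rank 12 peak of rhein lay wholly over the exon, the coding peak of DMSO Diff over 61% of its length, that of DMSO Pre over 22% and that of DMSO MCE at codons 90 to 181 over 19.6%. The rank 1 peak of rhein, the stop codon peak of DMSO MCE and all 3′ UTR and 5′ UTR peaks of Cebpb lay outside it, as did every Cebpd peak.

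The gene symbols in the lists hide most of these peaks. Of the 13 Cebpb peaks in the distinct lists, only the 5′ peaks of DMSO MCE and rhein carried the symbol Cebpb, and the others carried Tmem189. A search by symbol would find no Cebpb peak in DMSO Pre or DMSO Diff. All 8 Cebpd peaks carried their own symbol. Over the placed peaks of the lists, 28%, 26.3%, 28.3% and 27.8% carried a symbol other than that of the gene holding them, in the same order of lists.

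Among 25 other genes grouped here as the C/EBP pathway, 4 had a peak at Pre, 9 at MCE and 6 at Diff under DMSO, and 4 under rhein. That is 16%, 36%, 24% and 16%, against 6.99%, 12.7%, 6.86% and 7.6% of all protein-coding genes. The 25 genes were chosen with earlier results of these data known, and the background counts genes that the cells may not express. The shares are thus a description and not evidence of enrichment. In at least 1 distinct list 10 of the 25 had a peak, against 16.9% of all protein-coding genes. That share also stands beside the counts by group below, and the groups are too small for a result to be read from them. In the C/EBP family, Cebpg, a partner without an activation domain, had 1 peak each in DMSO MCE and DMSO Diff at ranks 2837 and 1632. Cebpa, Cebpe and Ddit3 had none, and Cebpz, which shares the name but not the basic leucine zipper, had 1 in DMSO MCE at rank 1649. Of 11 upstream factors 6 had a peak in at least 1 distinct list. Fosl2, an AP-1 subunit, had 2, 5, 4 and 8 peaks, its highest score being at rank 1820 in DMSO Pre and 109 in rhein. Stat3, which signals from cytokine receptors, had 1, 3, 2 and 2 peaks, the best at rank 691 in DMSO MCE. These were the only ones of the 25 with a peak in all 4 distinct lists. Klf5, which acts downstream of C/EBPβ and C/EBPδ as well, had 0, 1, 1 and 2 peaks, with rank 75 in rhein. Nr3c1, the glucocorticoid receptor that dexamethasone activates, had 1, 1, 2 and 0. Creb1, the cyclic AMP response factor, had 2 in DMSO MCE only, and Jak2 had 1 each in DMSO MCE and DMSO Diff. Of 5 kinases of C/EBPβ, Gsk3b had 2 peaks in DMSO Pre and 1 in rhein, and Mapk3 had 1 in DMSO MCE. The 4 downstream factors Pparg, Srebf1, Zfp423 and Ebf1 had none, and the lists do not tell a lack of the mark from a lack of RNA. Of all 27 genes, Cebpb had the highest score in each of the 4 distinct lists.

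The genes closest to Cebpb in percent of transcript under peaks over the 4 distinct lists, by Euclidean distance among 3690 other genes, were Pnrc1 at 10.4 percentage points, Cd248 at 21.1 and Hnrnpa0 at 26.8. Pnrc1 was covered over 31.9%, 53.1%, 39.4% and 43.1%. Closest to Cebpd were Hs6st1 at 7.28, Akap2 at 7.3 and Il6st at 7.66 percentage points. Hs6st1 was covered over 5.38%, 22.9%, 12.8% and 22.9%. Cebpd thus had nearer neighbours than Cebpb, whose covered share was among the largest in each list.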

How the data were processed

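Data were 5 lists of m6A peaks from MeRIP-seq of 10 libraries. Per the study's methods and the submitters' processing notes, the authors trimmed reads with Trim Galore 0.6.5, aligned them to mm10 with HISAT2 2.1.0, removed duplicates with Picard 2.23.5, filtered them with SAMtools 1.9, ran exomePeak2 with its default settings to call peaks (version not given in the sources used here) and annotated them with ChIPseeker 1.26. Which libraries entered each list was not established. The deposited column headed log2 fold change was treated as a score. It was used only for ranks within a list and for thresholds, a score above 33.2 being read as an adjusted p-value below 1e-10 and one above 9.97 as below 0.001.

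Peaks were placed anew on GENCODE M21 (GRCm38), on the gene's strand with both ends in exons. The longest coding transcript of each gene was used for length, parts and motifs, and the midpoint set a peak's part. Start codons of LAP and LIP were taken from RefSeq. Peaks were shared with at least 1 base in common. Background shares cover all protein-coding genes. Named genes were Cebpb and Cebpd, the listed pathway genes with a peak, those with most peaks with their values, and the 3 genes nearest each member in percent of length under peaks. The members and the list of pathway genes were chosen with earlier results of these data known. Python 3.11.15, NumPy 2.4.6, SciPy 1.17.1 and pysam 0.24.0 were used, and the procedures were tested on simulated data.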

Additional observations from a re-analysis of the deposited data

Results flagged for a closer look

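Set against the DMSO lists of the 2 stages, rhein gave opposite signs for Cebpd, though the negative values were small. The bases of Cebpd under peaks changed by -25 at MCE and by 300 at Diff, and the bases of its 3′ UTR under peaks by -4 at MCE and by 375 at Diff. The values at MCE are close to no change. The -25 equals the step of the peak caller and stands against 975 bases in DMSO MCE, and the -4 stands against 379. With 1 list per condition the difference between the stages was not tested. It is also not independent evidence of a stage effect, because the rhein lists are nearly the same list, so that both contrasts differ only in their DMSO list.

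Peaks on the strand opposite to Cebpb, in the Tmem189 exon, were found outside the measurement of Cebpb itself. They had a score of 13.2 in DMSO Diff and of 63.2 in each of the rhein lists. None was listed there in DMSO Pre or DMSO MCE.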

How the results depend on the processing

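No paired analysis was possible because each condition has 1 list and no test was made, and leaving out a replicate was not possible for the same reason. Of 133 alternative values, 84 stayed within the limits set, 46 moved and 3 changed sign. For counts the limit was a change of 1.5-fold. Staying within it thus includes a step from 2 to 3 peaks, as for Cebpb in DMSO Diff with either strand counted. In the order DMSO Pre, DMSO MCE, DMSO Diff and rhein, taking peaks by the authors' symbol gave Cebpb 0, 1, 0 and 1 peaks. An adjusted p-value below 1e-10 left 0, 2, 1 and 3 for Cebpb and 0 for Cebpd in DMSO Pre, and below 0.001 left 1 for Cebpb and 0 for Cebpd in DMSO Pre. The share of length under peaks below 0.001 was 9.97%, 48.2% and 26.6% for Cebpb in DMSO Pre, DMSO MCE and rhein, and 0% and 15.3% for Cebpd in DMSO Pre and rhein. With the RefSeq mRNA end the Cebpd shares became 15.5%, 43.1%, 28.8% and 42%, and GGAC under minus outside Cebpd peaks turned positive, at 1 per kb in DMSO Pre, 0.459 in DMSO MCE and 0.683 in rhein. Among peaks of the same length the highest Cebpb peak stood at 1.69%, 4%, 4.17% and 0.205% of the ranks and the highest Cebpd peak at 88.2%, 20%, 100% and 7.69%. The highest Cebpd peaks and those of Cebpb in DMSO MCE and DMSO Diff shared their length with few others, at most 25 peaks counting themselves. Among peaks of intronless genes the places were 5.48%, 1.09%, 3.49% and 0.794% for Cebpb and 75.3%, 3.28%, 8.14% and 3.17% for Cebpd. Requiring the same start and end left 0 shared peaks in every list. The authors labelled member peaks as exon, 5′ UTR or 3′ UTR, and with exon read as coding sequence their labels put 0 peaks of DMSO Pre and 1 of DMSO Diff there. A window of 100 bases held GGAC in 1 peak of DMSO Pre, 1 of DMSO Diff and 3 of rhein. Joining peaks across 25 bases left 1 Cebpb peak in DMSO Diff. This alternative, the RefSeq end and counting either strand were chosen after seeing the data. The unknown depth limits every count, and a peak that is not listed is not shown to be absent.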
